A study of Mus musculus with 4 samples.

Results

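B-cell genes were followed in the epididymal fat pad, a visceral depot attached to the male reproductive tract, of mice on high-fat diets. The set held 9 genes chosen by symbol: Cd79a, Cd79b, Ms4a1, Fcmr, Pax5, Cd22, Fcrla, Pou2af1 and Blk. They were chosen with earlier results of these data known. All 9 were among the 18194 genes with a named probe set on the array. Where a gene had several probe sets, the one with the highest mean log2 signal over the 4 arrays represented it, and the others are described beside it.

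The C57Bl/6J mice started on the diets at 9 weeks of age and were fed for 21 weeks. The high-calcium diet contained 1.8% calcium and whey protein isolate, and the standard high-fat diet contained 0.4% calcium. Both were high-fat diets, with 60% of energy given for the standard one, and no lean group was profiled. Of 10 mice per diet, 2 per diet were to be profiled on Affymetrix mouse genome arrays. The labels place 2 arrays on the high-calcium diet and 1 on the standard diet. The remaining array is titled with the theme of the study, which does not settle its diet, and similar wording stands in the source label of high-calcium replicate 2. It is called the array of open diet here, its values are given, and it entered no test.

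B cells are the antibody-producing lineage of adaptive immunity. They recognise antigen through a membrane immunoglobulin that signals by way of the Cd79a and Cd79b chains, and their identity is held by transcription factors such as Pax5. B cells are found in visceral fat and in the lymphoid clusters and lymph nodes associated with it, and they are known to accumulate in the fat of obese mice. In RNA from whole tissue, more cells of a type and more RNA per cell cannot be told apart.

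Signals are the deposited linear intensities, and how they were scaled is not stated in the labels. The median of each array was taken as background, a cut chosen with the data known. That median was 0.0963 and 0.0628 on high-calcium replicates 1 and 2, 0.0624 on the standard array and 0.0585 on the array of open diet. Dim probe sets were thus brighter on replicate 1 than on the other arrays, while upper quartiles were 0.343, 0.307, 0.311 and 0.296 in the same order. Markers of the labelled tissue were present: all 11 measured adipocyte genes lay above background on all 4 arrays, and their median log2 gap between the high-calcium replicates was -0.001. Adiponectin (Adipoq), a hormone of fat cells, had log2 signals of 5.15 and 5.02 on the high-calcium arrays and 5.12 on the standard array. The gap was 0.17 for Fabp4, a fatty acid carrier, and 0.09 for Lpl, lipoprotein lipase.

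Promoter windows of 300 bases, from 250 before to 50 after the annotated start, were present in RefSeq's table (GRCm38.p6) for 6 members. They are shown for Cd79a and Pou2af1, a receptor chain and a regulator whose signals differed widely between the arrays, and for Cd22, whose signal hardly differed. Capitals mark matches, on either strand, to the PU.1-type letters GAGGAA or to the EBF-type letters CCCNNGGGA. Both are patterns of factors that act in B-cell development.

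Cd79a, chr7:24897247-24897546, plus strand: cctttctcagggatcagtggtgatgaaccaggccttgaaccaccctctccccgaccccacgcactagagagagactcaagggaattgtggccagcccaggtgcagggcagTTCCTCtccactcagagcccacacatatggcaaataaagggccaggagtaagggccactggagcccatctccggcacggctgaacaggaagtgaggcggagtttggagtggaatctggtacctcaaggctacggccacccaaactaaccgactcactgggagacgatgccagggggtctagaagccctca

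Pou2af1, chr9:51213440-51213739, plus strand: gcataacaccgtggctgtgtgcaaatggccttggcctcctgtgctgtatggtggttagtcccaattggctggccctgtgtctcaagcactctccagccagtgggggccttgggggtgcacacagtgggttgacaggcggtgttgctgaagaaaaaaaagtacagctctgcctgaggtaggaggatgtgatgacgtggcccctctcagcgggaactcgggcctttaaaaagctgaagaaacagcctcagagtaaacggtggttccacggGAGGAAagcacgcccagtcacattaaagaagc

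Cd22, chr7:30878979-30879278, minus strand: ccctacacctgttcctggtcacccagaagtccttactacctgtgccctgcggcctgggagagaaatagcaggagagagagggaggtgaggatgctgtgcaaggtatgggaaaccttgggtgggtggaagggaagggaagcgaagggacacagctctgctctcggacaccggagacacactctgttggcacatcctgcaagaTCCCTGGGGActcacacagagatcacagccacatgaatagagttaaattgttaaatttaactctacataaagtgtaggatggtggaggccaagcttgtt

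The PU.1-type letters were found in 4 of the 6 windows (Cd79a, Fcmr, Fcrla and Pou2af1), where 28.3% of all 32851 windows of this length hold them. The EBF-type letters were found in 1 window, that of Cd22, as overlapping matches on the 2 strands, and 6.56% of all windows hold them. The octamer ATGCAAAT, the pattern read by the Oct factors that Pou2af1 assists, was found in 0 of the 6 windows and in 1.74% of all windows. Such a match describes letters only.

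Signal of the B-cell receptor genes was high on 1 array. Cd79a, a signalling chain of the B-cell receptor, had signals of 0.237 and 0.0273 on high-calcium replicates 1 and 2, against 0.0516 on the standard array, and 0.0376 on the array of open diet. Only replicate 1 was above background. Cd79b, its partner chain, had 0.813 and 0.125 on the high-calcium arrays, against 0.170 on the standard array, and 0.104 on the array of open diet. Cd79b was above background on all 4 arrays, and the standard array lay between the high-calcium ones. Blk, a Src-family kinase that acts below the receptor, had 0.159 and 0.0452 on the high-calcium arrays, against 0.0783 on the standard array, and 0.00253 on the array of open diet. Replicate 1 and the standard array were above background for Blk.

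Genes of B-cell surface proteins were highest on replicate 1 too, with 1 that was nearly level. Ms4a1, which encodes CD20, had signals of 0.717 and 0.0535 on high-calcium replicates 1 and 2, against 0.120 on the standard array, and 0.0430 on the array of open diet. Its other probe set had 0.309 and 0.0187 against 0.0646, and 0.0246. In both probe sets replicate 1 was highest, the standard array next, and replicate 2 and the array of open diet under background. Fcmr, the Fc receptor for IgM, had 0.642 and 0.0725 on the high-calcium arrays, against 0.1003 on the standard array, and 0.0488 on the array of open diet. For both genes replicate 1 stood far above the other arrays, which lay within a factor of 2.79 of each other for Ms4a1 and of 2.06 for Fcmr.

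Cd22, an inhibitory lectin that dampens receptor signalling, was the level one. Its signals were 0.320 and 0.268 on the high-calcium arrays, against 0.263 on the standard array, and 0.249 on the array of open diet. It was above background on all 4 arrays and nearly level. Its second probe set, under background on all 4 arrays, had 0.0263 and 0.0510 on the high-calcium arrays, against 0.0574 on the standard array, and readings under background give no direction.

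Fcrla, an intracellular Fc receptor-like protein of B cells, had signals of 0.0970 and 0.0524 on the high-calcium arrays, against 0.0693 on the standard array, and 0.0459 on the array of open diet. These values lay close to background throughout, from 0.784 to 1.11 times the array medians. Of its 2 other probe sets, 1 had 0.0943 and 0.0589 against 0.0863 and reached 1.38 times the median on the standard array alone, and the other was under background on all 4 arrays.

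Of the transcriptional regulators, Pou2af1, the B-cell coactivator OBF-1, had signals of 0.301 and 0.0517 on the high-calcium arrays, against 0.107 on the standard array, and 0.0249 on the array of open diet. As for Ms4a1, replicate 1 was highest and the standard array next. Replicate 2 and the array of open diet were under background for both genes. Pax5, which commits progenitors to the B lineage, had 0.157 and 0.0693 on the high-calcium arrays, against 0.0140 on the standard array, and 0.0394 on the array of open diet. Here both high-calcium arrays were above background, at only 1.63 and 1.10 times the array medians, and the other arrays were under it. The second Pax5 probe set was under background on all 4 arrays and had 0.0353 and 0.0104 on the high-calcium arrays, against 0.0137 on the standard array. It gives no direction, so the values for Pax5 rest on 1 probe set.

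**Figure D1:**
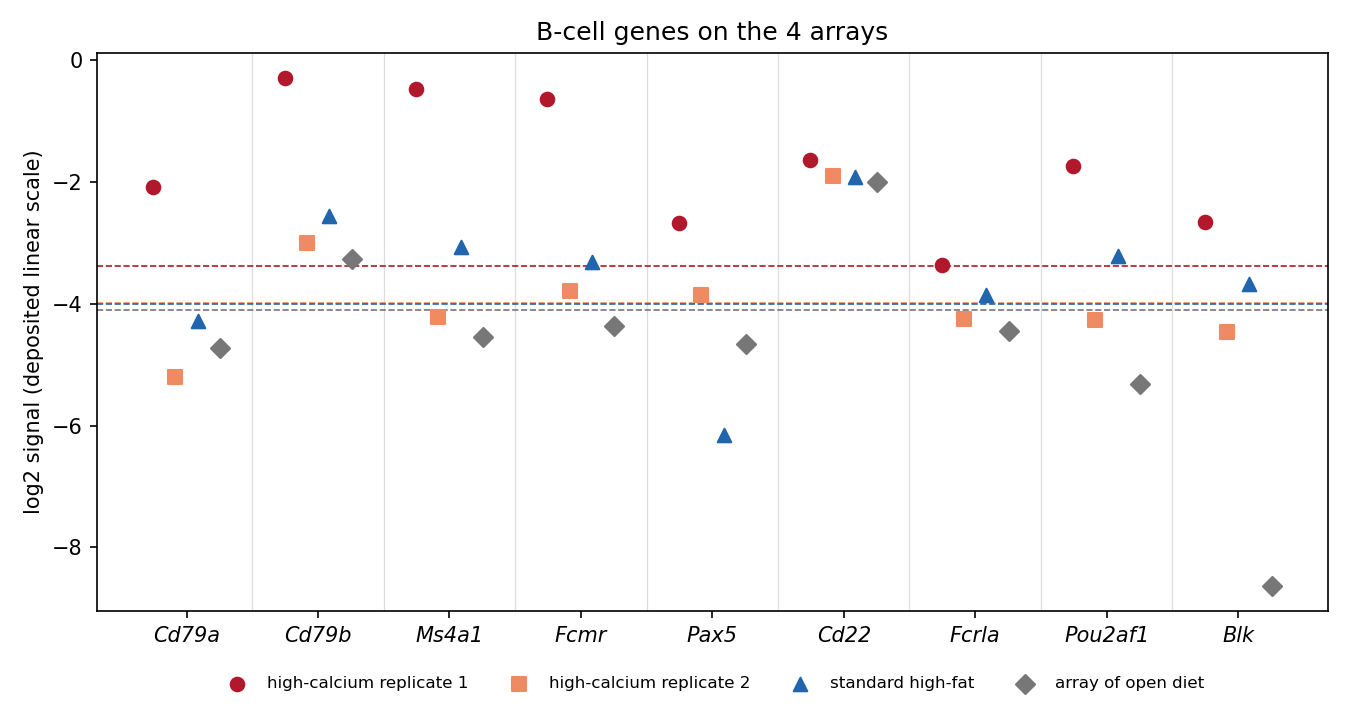
Log2 signal of the 9 B-cell genes (vertical axis, deposited linear scale) on high-calcium replicates 1 and 2, the standard array and the array of open diet, with 1 point per array and a dashed line at the median of each array in its colour. Replicate 1 is the highest point for all 9 genes, by a wide margin for Ms4a1, Fcmr, Cd79b and Cd79a and hardly at all for Cd22.

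Replicate 1 had the highest signal of the 4 arrays for 9 of 9 members, where 47.6% of all genes had their highest signal there. The count was 8 after quantile normalization, and 7 on median-centred arrays or when every gene's probe sets were averaged. The share of 47.6% holds for the deposited values only, and none was computed for these settings. Summed over the members, the linear signal was 3.44 and 0.764 on the high-calcium arrays, against 0.974 on the standard array, and 0.595 on the array of open diet. Members above background numbered 9 and 4 on the high-calcium arrays, against 7 on the standard array, and 2 on the array of open diet. Of all 18194 genes, 12013 and 11843 were above it on the high-calcium arrays, 12044 on the standard array and 11780 on the array of open diet. The array of open diet had the lowest reading of all for 7 members, and a lower one than the standard array for 8, all except Pax5. That array also had the lowest median, and most members were under background there. Ms4a1, Fcrla, Pou2af1 and Blk were under background on replicate 2 as well, and Cd79a and Pax5 on the standard array. Such readings have no order, and no share over all genes was set beside these counts.

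The gap between the 2 high-calcium arrays was larger than the mean difference between the diets for 8 of the 9 genes, all except Pax5. For 7 of them the standard array read between the high-calcium ones, and the larger gap follows from that order. It is no separate result, and no share over all genes was set beside it. Fcmr was 8.86-fold and Cd79b 6.52-fold higher on replicate 1 than on replicate 2. Where replicate 2 was under background, its array median was set in its place and the ratio is a bound. By that measure Ms4a1 was at least 11.4-fold higher on replicate 1, Pou2af1 at least 4.79-fold, Cd79a at least 3.76-fold and Blk at least 2.54-fold. A gene under background on both arrays gets 1.53 by that measure, because the array medians differ. Fcrla, at 1.54, thus showed hardly more than that offset, which the other bounds hold too. Pax5 was 2.27-fold and Cd22 1.19-fold higher. With 1 array on each side, no test is possible and these ratios describe 2 mice.

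In all, 7 of 9 members were at least 2-fold higher on replicate 1 than on replicate 2, where 22.4% of all genes were. Since the members were chosen with earlier results of these data known, such counts beside shares of all genes are no test. With signals under the array median set to it, the count was again 7, against 6.86% of all genes. Dim genes differ more often. With genes split at the median of their mean log2 signal over the 4 arrays, a split chosen after seeing the data, the share was 41.6% in the dimmer part, which held 7 members, 6 of them past 2-fold. It was 3.18% in the brighter part, which held Cd79b and Cd22, and of these Cd79b was past it. The median log2 gap was 2.54 over the members and 0.18 over all genes.

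For Cd79a, whose replicate 2 value was under background, the gap depended on how dim signals were treated. Its log2 gap was 3.12 as deposited, 1.91 with signals under the array median set to it and 1.40 with 0.1 added before the log. In those last settings Cd79b had 2.71 and 2.02, and Ms4a1 had the widest gap of the members, 3.51 and 2.41. After quantile normalization, which gives all arrays the same distribution, the log2 gap was 3.59 for Ms4a1, 2.97 for Fcmr, 2.79 for Cd79a, 2.58 for Cd79b, 2.27 for Pou2af1 and 1.38 for Blk. It was 0.74 for Pax5, 0.28 for Fcrla and 0.07 for Cd22. Pax5 was then no longer past 2-fold, which left 6 members, against 13.4% of all genes. Centring each array on its own median took the same amount from the gap of every gene and moved the median gap of all genes to -0.43. That shift left Cd22 at -0.36 and the other 8 members above 0.

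**Figure D2:**
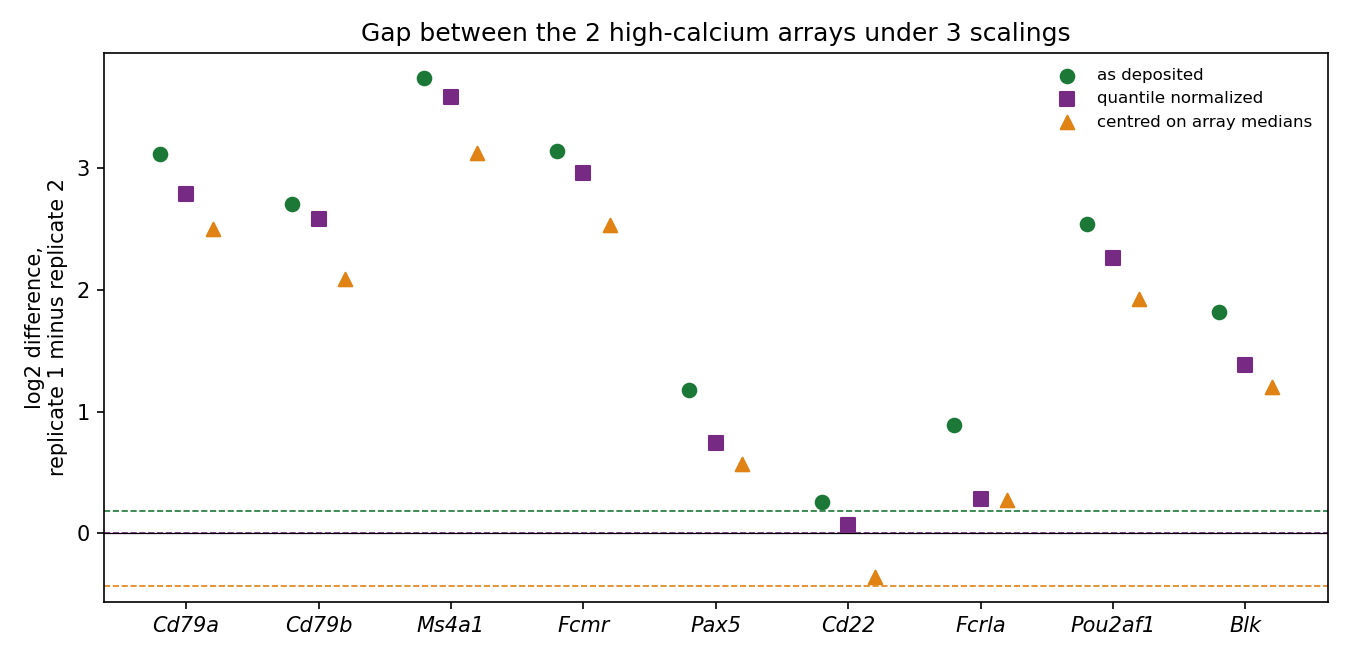
Log2 difference of high-calcium replicate 1 minus replicate 2 (vertical axis) for each B-cell gene on the values as deposited, after quantile normalization and with arrays centred on their medians. Dashed lines give the median of all genes under each scaling. Centring moves every gene by the same amount, and Cd22 lies near 0 as deposited and after quantile normalization.

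The question the design poses is whether the high-calcium whey diet alters gene expression in fat. For the B-cell genes the diets could not be separated. limma, fitted on the 2 high-calcium arrays and the standard array over all 18194 genes, called 0 genes at an adjusted p under 0.05, which is 0%, and 0 of the 9 members. At an unadjusted p under 0.05 it marked 4.94% of all genes and 1 member, Pax5. The standard array lay between the high-calcium arrays for 7 members, with replicate 1 above it and replicate 2 below it, where 24.7% of all genes had that order. For Cd79a, 1 of the 7, both replicate 2 and the standard array were under background and have no order. With signals under the array median set to it, the count was 6, against 17.2% of all genes. Fcrla, 1 of the 6, lay close to background. After quantile normalization its replicate 1 no longer exceeded the standard array, with a log2 difference of -0.13.

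Fcmr differed between the diets by 1.11 on the log2 scale (SE 1.80), and its 95% interval ran from -5.56 to 7.77. Its log2 signal averaged -2.21 ± 2.23 (SD, n = 2) with high calcium and was -3.32 on the standard array. Cd79b differed by 0.90 (SE 1.55), Ms4a1 by 0.71 (SE 2.13) and Cd79a by 0.64 (SE 1.78). The remaining differences were 0.22 for Pou2af1, 0.12 for Blk and 0.04 for Fcrla. In each of these 7 genes the SE exceeded the difference. The differences hide opposite signs: relative to the standard array, Cd79b lay at 2.26 on replicate 1 and at -0.45 on replicate 2, where all 3 arrays were above background. Ms4a1 lay at 2.58 and -1.16 and Pou2af1 at 1.49 and -1.05, with replicate 2 under background in both. Without replicate 1 the median difference over the members turned from positive, 0.64, to -0.47.

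Both high-calcium arrays exceeded the standard array for 2 members, Pax5 and Cd22, and 38.6% of all genes had both above. Pax5 differed by 2.89 (SE 0.74, 95% interval 0.16 to 5.62), with an adjusted p of 0.995 from limma. Since Pax5 was under background on the standard array, only a bound holds, and the mean of the high-calcium arrays was at least 1.67-fold higher. Cd22 differed by 0.15 (SE 0.35), with an interval from -1.14 to 1.45. The lowest adjusted p of any member under any setting tried was 0.443, for Pax5 on median-centred arrays.

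**Figure D3:**
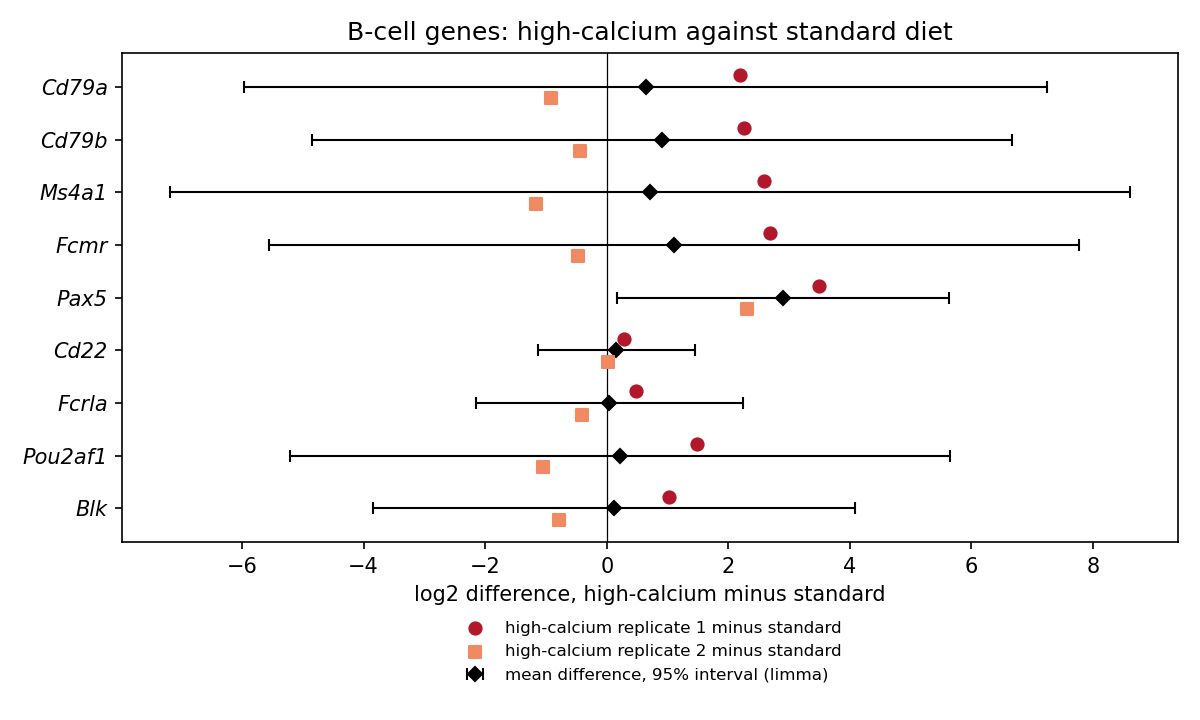
Log2 difference of high-calcium minus standard (horizontal axis) for each B-cell gene, as the limma mean with its 95% interval (diamonds and bars) and for each high-calcium array alone (circles, replicate 1, and squares, replicate 2). The 2 arrays fall on opposite sides of 0 for 7 genes, of which Cd79a is under background on replicate 2 and the standard array, and the interval leaves out 0 for Pax5 alone.

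Other B-cell genes, a list of 28 of which 26 were measured here, followed the members in part. Among the 6 brightest, on the log2 scale the gap between replicates 1 and 2 was -0.90 for Blnk, an adaptor of the receptor, -1.09 for Stap1, an adaptor, -0.96 for the surface lectin Cd72, -0.02 for the transcription factor Ebf1, 0.02 for the kinase Btk and 0.26 for the tetraspanin Cd37. Several of these are not restricted to B cells: Ebf1 also acts in fat cell precursors, and Btk and Blnk are also made by myeloid cells. By mean signal, the median gap was 0.02 over the 11 genes in the brighter part of all genes, where it was 0.04 for all genes. Over the 15 in the dimmer part it was 1.64, beside 0.72 for all genes of that part.

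Across the list 13 of 26 genes were at least 2-fold higher on replicate 1, with Stap1 at least 2-fold lower, and 19 had their highest signal there. Some genes of mature B cells, chosen after their values were seen, had gaps near those of the members. Ly6d, a surface marker of the B lineage, had log2 signals of -0.81 and -3.93 on the high-calcium arrays, against -2.79 on the standard array. Tnfrsf13c, the receptor for the survival factor BAFF, had -1.36 and -3.30 on the high-calcium arrays, against -2.97 on the standard array. Cr2, a complement receptor of B cells, was above background on replicate 1 alone, and so was Fcer2a, the low-affinity IgE receptor. Other surface protein genes of the list, also chosen after their values were seen, had no such gap. It was -0.60 for Cd180, -0.22 for Cd40 and 0.17 for Tnfrsf13b, all above background on all 4 arrays. limma called 0 of the 26 between the diets.

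Genes of antibodies and plasma cells, the secreting end stage of the lineage, were mixed. Of 13 measured genes 6 were at least 2-fold higher on replicate 1 than on replicate 2 and 1, Ighg3, was at least 2-fold lower. The heavy chain gene Ighm was bright on every array, with log2 signals of 4.78 and 4.46 on the high-calcium arrays, against 4.41 on the standard array, and 4.22 on the array of open diet. Jchain, which links IgM and IgA chains, had 2.63 and 1.44 against 1.91, and 0.30 on the array of open diet. The light chain gene Iglv1 had 0.72 and -2.26 on the high-calcium arrays, against -0.76 on the standard array. Mzb1, a chaperone of antibody secretion, had -0.24 and -2.20 on the high-calcium arrays, against -2.004 on the standard array.

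Igha, the heavy chain of IgA, went against that order. It had log2 signals of -1.64 and -2.94 on the high-calcium arrays, against 0.30 on the standard array, and -1.60 on the array of open diet. Sdc1, a plasma cell marker that epithelia also make, had -0.69 and -0.14 on the high-calcium arrays, against -0.52 on the standard array. Probe sets of immunoglobulin genes can bind related gene segments, so these values are uncertain by gene. limma called 0 of the 13 between the diets.

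Genes of the signalling chain below the receptor, most of which are shared with other blood cells, did not follow the members. All 15 measured genes were above background on all 4 arrays, and their median log2 gap between replicates 1 and 2 was -0.35. Cd81, a tetraspanin of the B-cell coreceptor that many cells make, had a gap of 0.02, the adaptor Grb2 one of -0.44 and Bcl10, an adaptor toward NF-kB, one of -0.35. Only 1 gene of the list, Pik3cd, a lymphocyte PI3-kinase subunit picked after its value was seen, was at least 2-fold higher on replicate 1, with a gap of 1.22. limma called 0 of the 15.

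T-cell genes were also higher on replicate 1, by an amount near that of dim genes in general. Of 18 measured genes 8 were at least 2-fold higher there than on replicate 2 and 1 was at least 2-fold lower. Their median log2 gap was 0.85. By mean signal, 16 of them lay in the dimmer part of all genes, with a median gap of 0.85. For all genes of that part the median gap was 0.72, and 41.6% of them were at least 2-fold higher on replicate 1. Cd3d, a chain of the T-cell receptor complex, had log2 signals of -1.25 and -3.00 on the high-calcium arrays, against -2.62 on the standard array. Cd2, an adhesion receptor, had -1.92 and -3.20 on the high-calcium arrays, against -3.07 on the standard array. The kinase Zap70 had -3.06 and -2.60 on the high-calcium arrays, against -1.70 on the standard array. After quantile normalization the median gap of T-cell genes was 0.41, that of other B-cell genes 0.55 and that of immunoglobulin and plasma-cell genes 0.25. Whether the B-cell gap exceeds the T-cell gap was not tested.

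Genes of lymphoid tissue had a median gap of 1.19 over 9 measured, and of 0.63 after quantile normalization. Ltb, lymphotoxin beta, which lymphocytes use to organise lymphoid tissue, had log2 signals of -0.18 and -3.52 on the high-calcium arrays, against -2.56 on the standard array, and -3.98 on the array of open diet. Cxcl13, the chemokine that draws B cells into follicles, had -1.36 and -3.42 on the high-calcium arrays, but -1.25 on the standard array. Il7r, the receptor for interleukin-7, had -0.15 and 1.05 on the high-calcium arrays, against 0.72 on the standard array. Glycam1, a product of lymph node venules, was under background on all 4 arrays, and Madcam1 and Ccr7 were above it on replicate 1 alone.

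Markers of other cells moved with the B-cell genes, and their part in the result was not tested. Smooth muscle genes were at least 2-fold higher on replicate 1 than on replicate 2 for 10 of 11 measured genes, or 9 with signals under the array median set to it, and their summed signal was 81.4 and 14.9 on the high-calcium arrays, against 15.0 on the standard array, and 12.7 on the array of open diet. Genes of testis and epididymis were so for 8 of 10, or 6 with signals under the array median set to it, with sums of 12.4 and 0.494 on the high-calcium arrays, against 2.20 on the standard array, and 0.301 on the array of open diet. After quantile normalization the median log2 gap was 2.11 for smooth muscle and 2.58 for testis and epididymis genes. Acta2, smooth muscle actin, had a log2 gap of 1.63 and the myosin light chain kinase gene Mylk one of 2.02. Synpo2, an actin-binding protein of muscle, was the gene of its list not past 2-fold, with a gap of -0.15.

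The sum of testis and epididymis genes rested largely on the epididymal defensin Defb42, whose signal was 9.55 on replicate 1 and which had a log2 gap of 7.73. Without Defb42 the sum over the other 9 genes was 2.89 and 0.450 on the high-calcium arrays, against 2.09 on the standard array, with 0.279 for open diet. Of the protamines, which pack sperm DNA, Prm1 had log2 signals of -0.20 and -2.60 on the high-calcium arrays, against -0.30 on the standard array, and -3.69 on the array of open diet. Prm2 had -0.29 and -3.61 on the high-calcium arrays, against -0.72 on the standard array, and -5.76 on the array of open diet. For both protamines the standard array was thus near replicate 1, whereas for Cd79b, Ms4a1 and Fcmr it lay nearer to replicate 2. The list was not uniform in this. Defb42 had log2 signals of 3.25 and -4.48 on the high-calcium arrays, against -3.21 on the standard array, which was also nearer to replicate 2. Of the same tract, Adam7, Lcn5 and Lcn8 were under background on all 4 arrays.

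Macrophage genes ran the other way, with a median gap of -0.82 over 15 measured genes and 5 at least 2-fold lower on replicate 1. Their summed signal was 47.8 and 80.5 on the high-calcium arrays, against 78.1 on the standard array. Lyz2, lysozyme, had a gap of -0.47, the growth factor receptor Csf1r one of -0.64 and the complement chain C1qb one of -0.83. Dendritic-cell genes had a median gap of -0.13 over 9 measured genes, with -1.20 for the integrin Itgax, -0.13 for the transcription factor Irf8 and 0.94 for the lectin Cd209a. Of the erythroid genes, 4 of 5, haemoglobin alpha (Hba-a1) and the anion exchanger Slc4a1 among them, were under background on all 4 arrays, and the fifth, Alas2 of haem synthesis, had a gap of 0.77. The erythroid median gap was 0.37 as deposited and -0.28 after quantile normalization. The sum over T-cell genes was 2.70 and 1.45 on the high-calcium arrays, against 1.80 on the standard array.

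**Figure D4:**
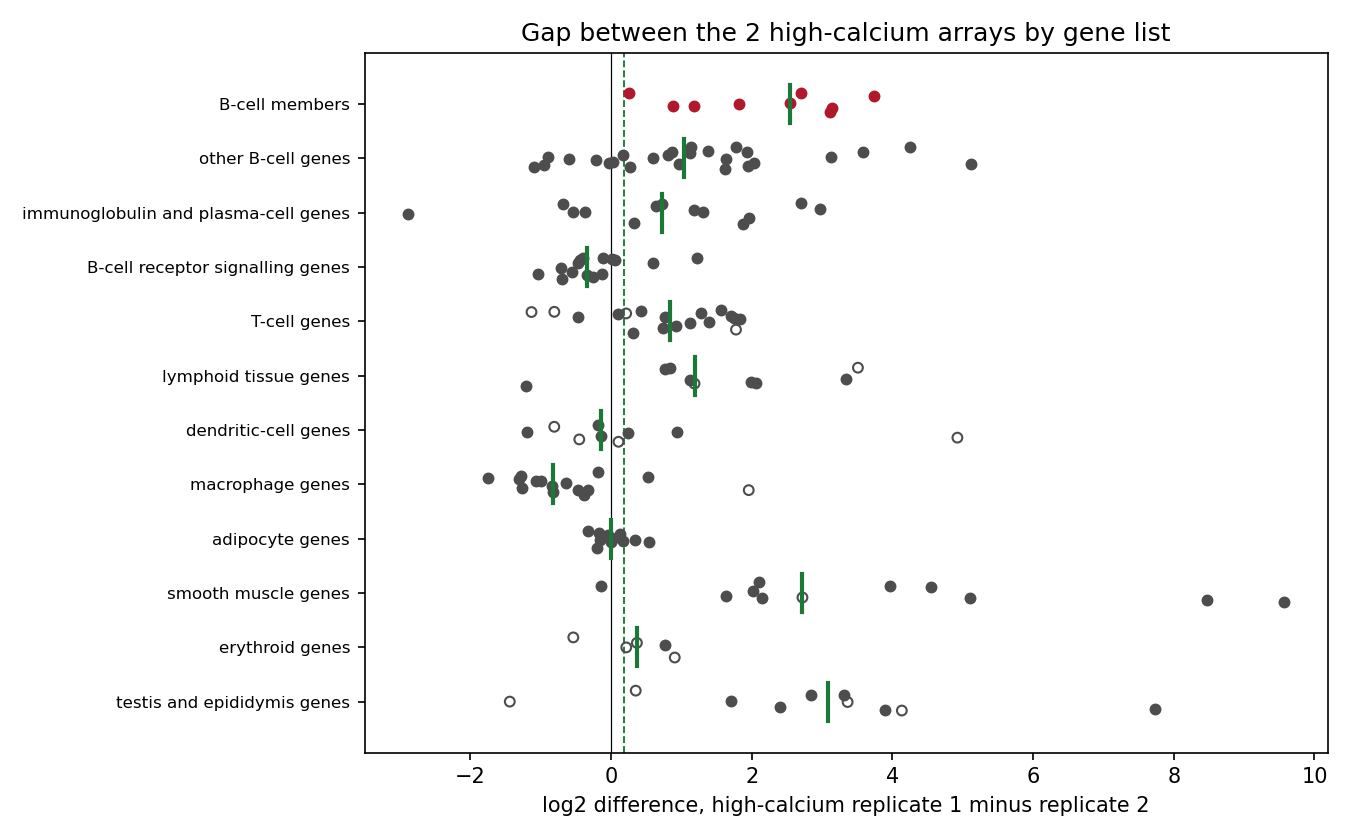
Log2 difference of high-calcium replicate 1 minus replicate 2 (horizontal axis) for each measured gene of 12 lists, filled where the gene is above background on at least 1 of the 2 arrays and open where it is not, with a bar at each list median and a dashed line at the median of all genes, 0.18. B-cell, smooth muscle and testis and epididymis genes have the 3 highest medians, and macrophage genes have the lowest.

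Genes outside all lists were ranked by the root-mean-square distance of their log2 profile over the 4 arrays, centred on its own mean, from the median profile of the 9 members. That profile was 1.98 and -0.63 on the high-calcium arrays, -0.06 on the standard array and -0.99 on the array of open diet. Among 11613 genes above background on at least 2 arrays, the nearest were Rab17 at a distance of 0.104, Baiap2l1 at 0.111, Rnase1 at 0.167, Nipal2 at 0.187 and Lsr at 0.189. Fads2, Coch, Spint1, Osbpl6 and Mal2 followed, at 0.205 to 0.241. Rab17 is a small GTPase of membrane traffic and Fads2 a fatty acid desaturase. Of the members, Cd79b was nearest at 0.117, and Cd22, Pax5 and Blk were farther than 1. Rab17 and Baiap2l1 were thus nearer than any member, and the profile was not particular to B-cell genes. These distances rest on 4 arrays.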

How the data were processed

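Total RNA of epididymal fat was labelled with biotin and measured on 4 arrays, per the labels. The deposited intensities are linear and positive, 1 for each of 45101 probe sets and array. The submitters' processing notes name RMA, with no version. On each array the median is 100 times the lowest intensity, and no label states how the values were scaled. Intensities were log2 transformed with no constant. Names came from GEO's platform annotation (34958 with 1 symbol, 932 with several, 9211 with none), and names were checked against RefSeq gene records of GRCm38.p6.

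Differences were tested with limma 3.58.1 in R 4.3.3 (lmFit and eBayes, two-sided, Benjamini-Hochberg, threshold 0.05), with 1 residual degree of freedom and 2.38 in all. The fit assumes that the lone standard array varies like the high-calcium ones. The procedure was tested on simulated data. Gaps between single arrays have no test, and folds use a limit of 2.

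Named were all members, the 3 brightest genes of each list (6 for other B-cell and immunoglobulin genes), and 10 genes of similar profile, RIKEN, Gm and LOC symbols left out. Genes named outside this rule are marked as chosen after their values were seen, as are those given only by their place relative to background or as the one exception of a count. Members and lists were chosen with earlier results of these data known. Listed genes with no value were not analysed here. Figures used matplotlib 3.10.9 and Python 3.11.15.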

Additional observations from a re-analysis of the deposited data

How the results depend on the processing

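No paired analysis was possible because the labels number only the high-calcium arrays. The number of arrays limits every value, and most members lay near background on 3 arrays. No setting called a member. limma called 96 genes on median-centred arrays, 6 with a trend and robust estimation and, in settings added after seeing the data, 1 with signals under the array median set to it and 5 on median-centred arrays among genes above background on all 4. The median log2 gap of the members between the high-calcium arrays was 1.92 on median-centred arrays, 1.40 with 0.1 added before the log, 1.91 with dim signals set to the median, 1.48 over the 2 members kept by the filter on mean signal and 0.86 over the 2 above background on all 4 arrays after centring. Both filters left 1 member past 2-fold, because they removed the other members.

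Leaving out each high-calcium array gave member medians of the diet difference from -0.47 to 2.20. Without replicate 1 the difference turned negative for 7 members. These are the members with the standard array between the high-calcium ones, an order that 24.7% of all genes had. For Cd79a, 1 of the 7, replicate 2 and the standard array were both under background, so its sign gives no direction. By gene, the range was -0.92 to 2.20 for Cd79a, -0.45 to 2.26 for Cd79b, -1.16 to 2.58 for Ms4a1, -0.47 to 2.68 for Fcmr, -0.40 to 0.49 for Fcrla, -1.05 to 1.49 for Pou2af1 and -0.79 to 1.03 for Blk. Other reversals among the members concerned differences within their SE. Medians over lists have no SE, and the cause of the reversals was not tested. Averaging all probe sets of a gene turned Fcrla to -0.63 and Cd22 to -0.25. Fcrla also turned to -0.21 with the probe set chosen on 3 arrays or without shared probe sets, to -0.27 after quantile normalization and to -0.28 on centred arrays. Cd22 turned to -0.16 on centred arrays, with or without the restriction to genes above background. Blk turned to -0.092 after quantile normalization and to -0.20 after centring, and Pou2af1 to -0.10 after centring. The lymphoid tissue median turned to -0.27 with the filter on mean signal and to -0.59 on centred arrays over 3 genes above background. The gap of other B-cell genes turned to -0.59 in that last setting.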
